A study of Rattus norvegicus with 8 samples.

Results

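The receptors for gonadotropin-releasing hormone (Gnrhr), luteinizing hormone (Lhcgr), follicle-stimulating hormone (Fshr) and prolactin (Prlr) were followed in the fetal rat testis after exposure of the dam to dibutyl phthalate (DBP), a plasticizer that at higher exposures is known to reduce androgen output of this organ. All probe sets that the platform's gene table assigns to a single one of these symbols were taken. They numbered 7 of 31042 probe sets tested: 2 for Gnrhr, 2 for Lhcgr and 3 for Prlr. No single-symbol probe set carried the name Fshr, so that 3 of the 4 receptor genes are described and Fshr was not analysed here. The samples were testes of male Fischer 344 fetuses at gestational day 20, in 4 samples from dams given corn oil alone (vehicle, 1 ml/kg) and in 4 from dams given DBP at 50 mg/kg in the same oil. Both groups were gavaged daily from gestational day 12 to 20, tissue was taken 6 h after the last dose, and each sample was read on 1 Affymetrix rat expression array. Whether samples of a group are from different dams is not in the labels, so p-values here reflect the spread among these 8 samples alone, and that spread may be technical. The comparison asks whether transcripts of the receptors through which pituitary hormones reach the testis differed after this dose.

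The testis receives luteinizing hormone (LH) and follicle-stimulating hormone (FSH) from the pituitary, whose gonadotropes release them when hypothalamic gonadotropin-releasing hormone (GnRH) binds its own receptor. In the testis the LH receptor sits on Leydig cells and drives steroid synthesis, and the FSH receptor sits on Sertoli cells; both couple mainly to the stimulatory G protein and cyclic AMP. The GnRH receptor couples mainly to Gq and phospholipase C and is best known from the pituitary, although it has also been described in rat Leydig cells. The prolactin receptor belongs to the cytokine receptors and signals through JAK2 and STAT5. Prolactin is known to modulate how Leydig cells respond to LH.

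Values are log2 signals, so that a difference of 1 is a doubling, and the RMA method that produced them gives no call of presence or absence. Array medians were 6.08 to 6.13, correlations between any pair of arrays were 0.991 to 0.998, and RNA integrity numbers were 8.6 to 8.8. DBP replicates 3 and 4 stood apart in poly-A spike-ins, bacterial transcripts added before labelling, with mean log2 values of 4.64 and 4.60 against 6.10 to 6.72 on the other 6 arrays. Results are therefore also given for DBP replicates 1 and 2, and for 3 and 4, against vehicle. Markers of the tissue were present at high signal, such as Insl3 of Leydig cells (11.85 in vehicle) and Amh of Sertoli cells (12.67).

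The sequences before the Gnrhr and Lhcgr genes are shown because Gnrhr was the receptor that rose and Lhcgr is the receptor through which LH acts on Leydig cells. Both windows run from 250 bases before to 50 bases after the RefSeq transcript start (assembly GRCr8). Capitals mark a match, on either strand, to one of 5 motifs searched: AAGGTCA (the core bound by SF-1 and NR4A receptors), TGACGT (cyclic AMP element), TGANTCA (AP-1), TAATCC (PITX) and GATAAG (the site of zinc finger factors of the Gata family).
Gnrhr, chr14:22211416-22211715, plus strand: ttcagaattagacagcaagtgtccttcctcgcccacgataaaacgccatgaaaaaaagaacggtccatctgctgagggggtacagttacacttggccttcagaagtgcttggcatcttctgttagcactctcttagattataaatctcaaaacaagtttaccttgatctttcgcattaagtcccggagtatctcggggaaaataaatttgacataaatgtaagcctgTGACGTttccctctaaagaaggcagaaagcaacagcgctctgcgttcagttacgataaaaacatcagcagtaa
Lhcgr, chr6:11415165-11415464, plus strand: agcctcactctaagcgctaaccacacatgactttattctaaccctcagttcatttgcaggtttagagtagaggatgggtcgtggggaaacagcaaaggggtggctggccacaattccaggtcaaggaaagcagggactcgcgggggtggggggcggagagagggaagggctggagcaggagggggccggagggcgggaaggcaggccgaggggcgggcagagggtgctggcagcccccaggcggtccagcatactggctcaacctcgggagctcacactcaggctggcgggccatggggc
The Gnrhr window held TGACGT once, starting 23 bases before the transcript start, a motif found in 7.94% of 33469 rat promoter windows of the same length. The Lhcgr window held none of the 5 motifs. Of the 2 windows listed for Prlr, the downstream one held TGACTCA, a match to the AP-1 motif on both strands that starts 17 bases before the transcript start; 7.33% of windows hold TGANTCA. The Fshr window held GATAAG on the minus strand (7.05% of windows). In the RefSeq order of protein-coding genes, Fshr and Lhcgr are direct neighbours on chromosome 6. These matches are descriptions of letters in short windows and say nothing about binding in these samples.

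Gnrhr, the receptor for GnRH, rose after DBP in both of its probe sets. Its brighter probe set (1387465_a_at) read 5.73, 5.96, 6.12 and 5.76 in vehicle replicates 1 to 4 and 7.73, 7.33, 7.02 and 7.98 in DBP replicates 1 to 4. The lowest DBP array lay 0.90 above the highest vehicle array. Group means were 5.89 ± 0.18 and 7.51 ± 0.42 (SD, n = 4 per group). The log2 change was 1.62 ± 0.18 (SE), or 3.08-fold. The 95% confidence interval of the change was 1.22 to 2.03, with an adjusted p of 0.00377 in limma, a linear model fitted to all probe sets with Benjamini-Hochberg adjustment and a threshold of 0.05. The count of Gnrhr probe sets past that threshold, 2 of 2, stands against 0.419% of all probe sets called higher, and groups separated in that direction were seen in 5.62%.

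The dimmer Gnrhr probe set (1369118_a_at) was nearly level in vehicle, at 5.04, 4.98, 5.0 and 4.95. In the DBP arrays it read 5.96, 6.16, 5.85 and 6.20. The groups were again apart, by 0.81. Its change was 1.05 ± 0.08 (SE; 2.07-fold, interval 0.87 to 1.23, adjusted p = 0.000963 in limma). By size of p it ranked 3 of 31042 probe sets. Replicate 3 was the lowest and replicate 4 the highest DBP array in both probe sets, while the order of the other two DBP arrays differed.

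The suffix of both names marks probe sets that match several transcripts of a gene, and the array gives no separate reading for each. The change was larger in the brighter probe set by 0.57 ± 0.20 (SE over arrays), with an exact 2-sided permutation p of 0.0286, the smallest that 4 arrays against 4 allow, and 0.143 after adjustment over the 5 within-gene pairs of probe sets compared. Whether the probe sets differ in their response was thus not settled. Neither probe set depended on the arrays with low spike-in signal: the change in DBP replicates 1 and 2 was 1.64 for the brighter and 1.07 for the dimmer, and in replicates 3 and 4 it was 1.61 and 1.03. Without moderation of the spread across probe sets the adjusted p became 0.0902 for the brighter probe set and 0.038 for the dimmer. The exact permutation test gave its smallest p, 0.0286, for both (0.0667 adjusted over the 7 probe sets).

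**Figure D1:**
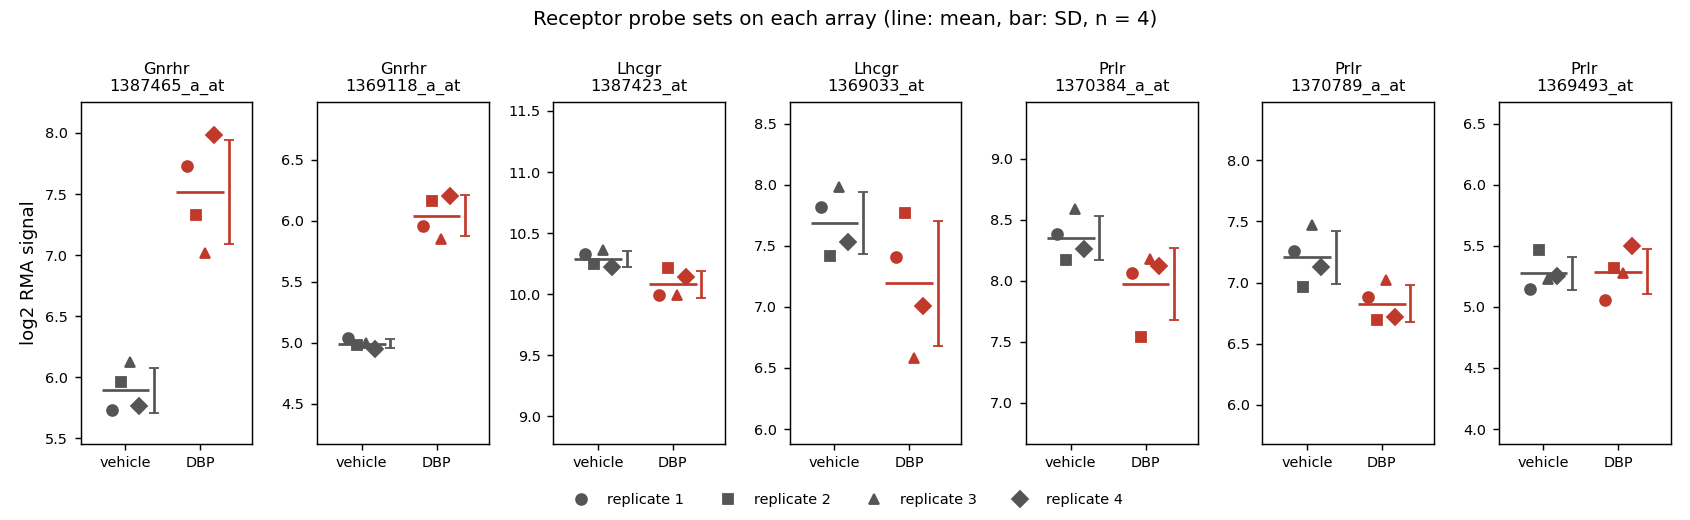
Log2 RMA signal (vertical axis) of the 7 receptor probe sets in the 4 vehicle and 4 DBP arrays, with a symbol for each replicate, a line at the group mean and a bar of 1 SD; each panel spans the same height in log2 units. Both Gnrhr panels show the DBP arrays above all vehicle arrays, while the groups overlap in the Prlr panels and in 1 of the Lhcgr panels and are 0.01 apart in the other.

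Lhcgr, which binds LH and is found on Leydig cells, lay slightly lower after DBP without passing the threshold. The brighter probe set (1387423_at) read 10.33, 10.25, 10.36 and 10.22 in vehicle and 9.99, 10.21, 9.99 and 10.14 after DBP. All DBP arrays were below all vehicle arrays, by a margin of only 0.01 between DBP replicate 2 and vehicle replicate 4. The same separation in the lower direction was seen in 5.26% of all probe sets, and 0.648% were called lower in limma. The change was -0.21 ± 0.07 (SE; interval -0.36 to -0.05, adjusted p = 0.17 in limma; exact permutation p = 0.0286). In RNA from a whole organ, fewer cells of a type and less RNA per cell cannot be told apart.

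The dimmer Lhcgr probe set (1369033_at) varied more. Its values were 7.82, 7.42, 7.98 and 7.53 in vehicle and 7.41, 7.77, 6.58 and 7.01 after DBP. The groups overlapped, since DBP replicate 2 exceeded 2 of the vehicle arrays. The change of -0.49 ± 0.22 (SE; interval -0.99 to 0.00, adjusted p = 0.274 in limma) came mainly from replicates 3 and 4, the arrays with low spike-in signal: it was -0.89 in these (adjusted p = 0.0186, where 13.3% of all probe sets passed) and -0.10 in replicates 1 and 2 (where 1.86% passed). Without DBP replicate 3 it was -0.29. The part of the spike-in difference in this reading was not tested. The brighter probe set gave -0.23 and -0.19 in the same split. The changes of the 2 Lhcgr probe sets differed by 0.29 ± 0.25 (SE; exact permutation p = 0.314), and their mean over the gene was -0.35 (adjusted p = 0.19).

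Prlr, the prolactin receptor, also lay lower in 2 of its 3 probe sets, and neither passed. The brightest (1370384_a_at) read 8.38, 8.17, 8.59 and 8.26 in vehicle and 8.06, 7.54, 8.18 and 8.12 after DBP. DBP replicate 2 was the lowest array and DBP replicate 3 just exceeded vehicle replicate 2. Its change was -0.38 ± 0.14 (SE; interval -0.69 to -0.06, adjusted p = 0.211 in limma; exact permutation p = 0.0571). It was -0.55 in DBP replicates 1 and 2, -0.20 in replicates 3 and 4, and -0.23 without DBP replicate 2.

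The second Prlr probe set (1370789_a_at) read 7.26, 6.96, 7.47 and 7.13 in vehicle and 6.88, 6.69, 7.02 and 6.72 after DBP. The order of the vehicle arrays was the same as in the brightest probe set, and DBP replicates 2 and 3 were again lowest and highest in their group. The change was -0.38 ± 0.11 (SE; interval -0.62 to -0.13, adjusted p = 0.134 in limma; exact permutation p = 0.0571). The changes of these 2 probe sets differed by 0.00 ± 0.12 (SE; exact permutation p = 0.971). The dimmest probe set (1369493_at), at 5.15 to 5.47 in vehicle and 5.06 to 5.50 after DBP, gave 0.01 with an interval of -0.20 to 0.23. Its distance from each of the other two changes, 0.39, did not pass the exact permutation test (p = 0.114, 0.19 adjusted over the 5 pairs).

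In both Lhcgr probe sets and both brighter Prlr probe sets, vehicle replicates 1 and 3, with an RNA integrity number of 8.7, read higher than vehicle replicates 2 and 4, with 8.8. In the DBP group replicate 2 had the highest number, 8.8, and replicate 3 the lowest, 8.6. There both Lhcgr probe sets went the other way, highest in replicate 2 and lowest or tied lowest in replicate 3. The brighter Prlr probe sets were lowest in DBP replicate 2 and highest in replicate 3. With RNA integrity number as a term in the limma model the Prlr change became -0.53 (adjusted p = 0.0299) in the brightest probe set and -0.49 (adjusted p = 0.0321) in the second. The Lhcgr change became -0.19 (adjusted p = 0.291) in the brighter and -0.37 (adjusted p = 0.504) in the dimmer probe set. The Gnrhr change was 1.66 with the term (adjusted p = 0.00977). An unadjusted p under 0.05 in limma was found for 5 of the 7 receptor probe sets, 2 higher and 3 lower, against 18.2% of all probe sets. The 7 probe sets belong to only 3 genes and were read on the same arrays, so this count is not one of independent readings.

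**Figure D2:**
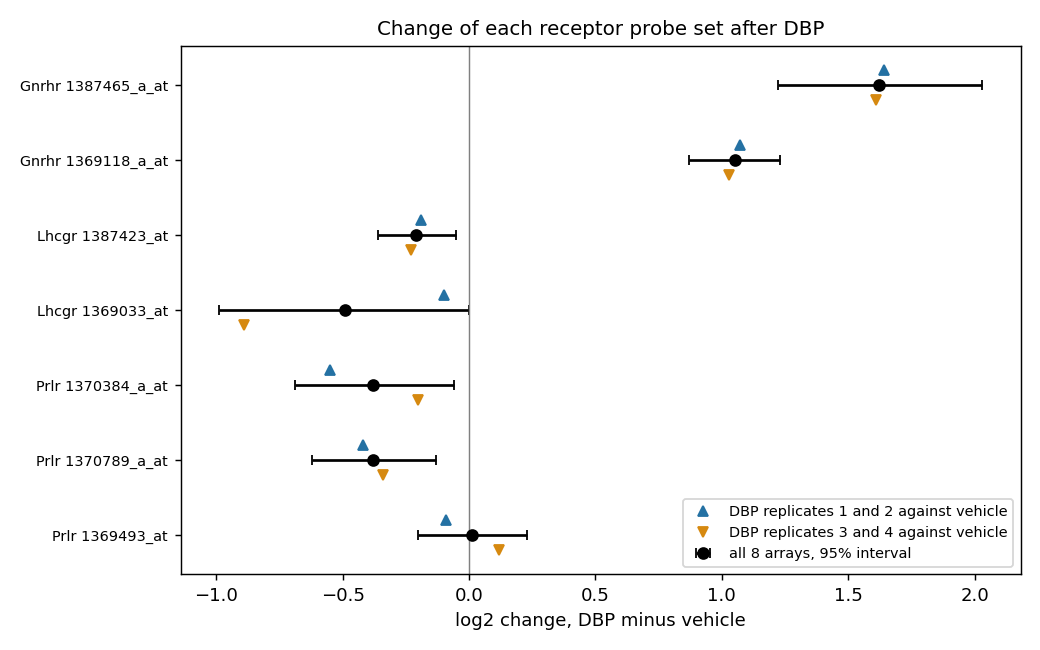
Log2 change, DBP minus vehicle (horizontal axis), of each receptor probe set: black points and bars give the limma estimate over all 8 arrays with its 95% interval, triangles the change in the named pairs of DBP arrays against all vehicle arrays. The Gnrhr points lie at 1.61 to 1.64 and at 1.03 to 1.07 whichever DBP arrays are used, whereas Lhcgr 1369033_at moves from -0.10 to -0.89 between the pairs.

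Transcripts of the hormones that bind these receptors did not pass the test. The 5 measured were Gnrh1 (change 0.10, interval -0.11 to 0.30), the common alpha subunit Cga (-0.01, -0.16 to 0.13), the LH beta subunit Lhb (0.17, -0.06 to 0.40), the FSH beta subunit Fshb (0.12, -0.08 to 0.32) and prolactin, Prl (0.08, -0.11 to 0.27). Lhb read 5.80 to 5.87 in vehicle and 5.90, 5.72, 6.19 and 6.23 in DBP replicates 1 to 4. Its higher values lay on the arrays with low spike-in signal, where the change was 0.37 (adjusted p = 0.0124 in limma). Of all probe sets, 13.3% passed in DBP replicates 3 and 4. Second probe sets gave -0.10 for Gnrh1 and 0.16 for Fshb. Vehicle means were 3.69 for Gnrh1, 4.01 for Cga, 4.81 for Fshb and 3.48 for Prl, below the array medians of 6.08 to 6.13. At such low signal a change may go unseen. Of 8 pituitary markers measured, among them the 4 pituitary hormone transcripts above, 0 passed, and their mean log2 value was 4.40 to 4.49 over the vehicle arrays and 4.38 to 4.58 over the DBP arrays. Pomc gave 0.18 (0.27 in DBP replicates 3 and 4, adjusted p = 0.0349) and Gh1 0.06.

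Signalling genes downstream of the receptors mostly did not pass. Across all 14217 genes, each represented by its brightest probe set, 1.22% passed the limma threshold and the median change was 0.02. Of 20 genes of LH and FSH receptor coupling 1 rose and 0 fell, with a median of -0.01. The riser was Prkar2b, a regulatory subunit of protein kinase A, at 9.13, 9.02, 9.11 and 9.05 in vehicle and 9.46, 9.59, 9.35 and 9.35 after DBP (change 0.36 ± 0.07, SE; adjusted p = 0.037). That call was lost without any 1 vehicle array (adjusted p 0.0981, 0.112, 0.123 and 0.116 without replicates 1 to 4), without DBP replicate 1 (0.0796) and without moderation (0.113). Prkar2b passed in DBP replicates 1 and 2 (0.45, adjusted p = 0.0175 in limma) and in replicates 3 and 4 (0.27, 0.03). The shares of all probe sets passing in these pairs were 1.86% and 13.3%.

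The next 3 genes of that list by p did not pass. Adcy3, an adenylyl cyclase, was lower in all DBP arrays (7.38, 7.49, 7.20 and 7.16 against 7.65 to 7.67 in vehicle; change -0.35, adjusted p = 0.062 in limma, 0.0225 without DBP replicate 2). Pde4b, a phosphodiesterase that degrades cyclic AMP, was higher in all of them (7.07, 7.23, 7.03 and 6.82 against 6.64 to 6.70; 0.37, adjusted p = 0.063, 0.0147 without DBP replicate 4). Its dimmer probe set gave 0.06. Adcy9, another adenylyl cyclase, gave -0.43 (adjusted p = 0.1, 0.0285 without DBP replicate 4).

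Of 13 genes of GnRH receptor coupling 0 passed, with a median of -0.02. The smallest p belonged to Prkce, a protein kinase C (-0.37, adjusted p = 0.176 in limma), Prkcz (0.14, 0.225) and the inositol trisphosphate receptor Itpr1 (0.12, 0.426). The Gq subunits that couple this receptor were in the list and did not pass. Of 15 genes of prolactin receptor signalling 0 passed, with a median of -0.02. Stat3 (-0.45, adjusted p = 0.205), the feedback inhibitor Socs1 (0.13, 0.252) and the receptor kinase Jak2 (-0.17, 0.383) had the smallest p. In DBP replicates 3 and 4, where 13.3% of all probe sets passed, Jak2 gave -0.36 (adjusted p = 0.0146) and Stat5a 0.28 (0.0497). The second Stat3 probe set gave -0.06. Of 12 genes of receptor desensitisation and mRNA binding 0 passed (median 0.03); Arf6, a small GTPase of receptor uptake, came nearest (0.17, adjusted p = 0.184), followed by Grk3 (0.16, 0.35) and Arrb1 (-0.11, 0.361). The dimmer Arrb1 probe set gave 0.20 (adjusted p = 0.291).

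Among 16 measured transcription regulators with known roles at these receptor genes, 1 rose. Nr4a1, an orphan nuclear receptor that is induced by LH through cyclic AMP in Leydig cells, read 7.52, 7.30, 7.09 and 6.90 in vehicle and 8.15, 8.38, 8.08 and 8.85 after DBP (change 1.16 ± 0.17, SE; adjusted p = 0.0132 in limma). DBP replicate 3 was lowest and replicate 4 highest, as for both Gnrhr probe sets. The Nr4a1 call was lost without vehicle replicate 3 (0.0604) and without moderation (0.125). The next by p were Cebpb (-0.34, adjusted p = 0.169), Sp1 (-0.38, 0.205) and Hnf4a (0.22, 0.219). In DBP replicates 3 and 4 Foxl2 (0.40, adjusted p = 0.0181), Pitx1 (0.33, 0.0419) and Hnf4a (0.32, 0.0275) passed beside Nr4a1, and in replicates 1 and 2 Nr4a1 alone of the 16 did. The shares of all probe sets passing were 13.3% in replicates 3 and 4 and 1.86% in replicates 1 and 2. Hnf4a and Pitx1 were dim, with vehicle means of 4.11 and 4.44. Sp1, a general activator of promoters without a TATA box such as that of Lhcgr, had a second probe set that fell by 0.52 (adjusted p = 0.0384), another at -0.49 and a further 2 at 0.01 each.

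Of the genes known to respond to LH or FSH, 1 in each list passed. Of 10 genes responsive to LH and cyclic AMP in Leydig cells 1 rose, Nr4a1, and the median was 0.11. Insl3, which encodes the Leydig cell peptide that guides testis descent, lay lower in every DBP array (11.31, 11.59, 11.50 and 11.66 against 11.79 to 11.90 in vehicle; -0.34, adjusted p = 0.0732 in limma, 0.0425 without DBP replicate 4). Hsd3b1 of steroid synthesis gave 0.17 (adjusted p = 0.163). Of 8 genes responsive to FSH in Sertoli cells 1 fell, Ccnd2, the cyclin D2 gene (-0.90 ± 0.16, SE; adjusted p = 0.032), with a median of -0.00. That call was lost without any 1 vehicle array (0.109, 0.0844, 0.122 and 0.0804 without replicates 1 to 4), and without DBP replicate 1 (0.0533) or DBP replicate 3 (0.0523), without moderation (0.167) and with a trended, robust variance prior (0.0644). Ccnd2 passed in DBP replicates 1 and 2 (-1.12, adjusted p = 0.0221 in limma) and in replicates 3 and 4 (-0.68, 0.00484). The shares of all probe sets passing in these pairs were 1.86% and 13.3%. Inhbb, the inhibin beta B subunit, gave -0.35 (adjusted p = 0.0614, 0.0222 without DBP replicate 2), Fabp5 0.19 and Shbg, the androgen-binding protein of Sertoli cells, 0.20.

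**Figure D3:**
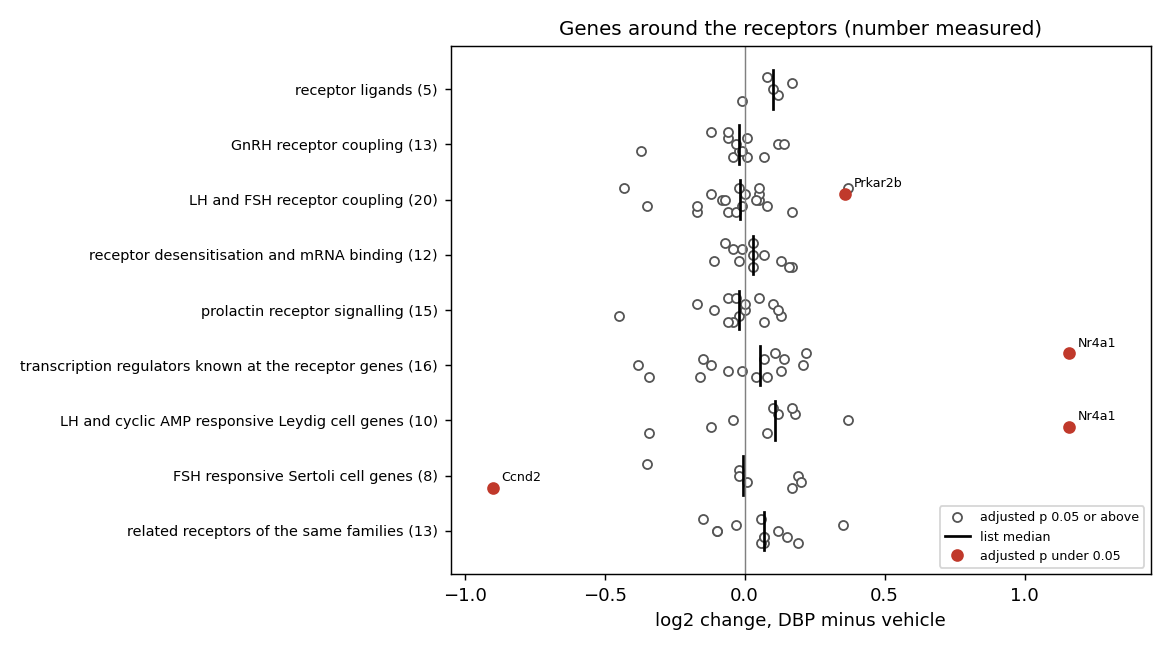
Log2 change, DBP minus vehicle (horizontal axis), of every measured gene in 9 lists around the receptors, 1 point per gene, with filled points for an adjusted p under 0.05 in limma and a bar at the list median. Filled points are Prkar2b (0.36), Nr4a1 (1.16, in both lists that hold it) and Ccnd2 (-0.90), and list medians lie between -0.02 and 0.11.

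Other receptors of the same families did not pass over all 8 arrays. Of 13 measured, the erythropoietin receptor Epor had the largest change (0.35, adjusted p = 0.16 in limma; 0.56 and 0.0104 in DBP replicates 3 and 4), and its other probe sets gave 0.09 and 0.14. By size of p the vasopressin receptors Avpr2 (0.12) and Avpr1a (0.19), relatives of the GnRH receptor among peptide hormone receptors, came next, and the dimmer Avpr2 probe set gave -0.04. In DBP replicates 3 and 4 Avpr1b (0.36, adjusted p = 0.0492 in limma) was also higher, and Ghr, the growth hormone receptor (-0.56, 0.0138), and Lgr4 (-0.37, 0.0172) were lower. In that pair 13.3% of all probe sets passed. Tshr, the thyrotropin receptor and nearest relative of the LH and FSH receptors, gave -0.10 (interval -0.25 to 0.05). Signal was low for Tshr and Avpr2, with vehicle means of 3.70 and 4.12.

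Marker lists of testis cells were set beside the receptors. Of 8 Leydig cell markers (Lhcgr not among them) 0 passed, and the mean log2 value of the list was 10.01 to 10.08 in vehicle and 9.88 to 10.05 after DBP, a range that lay partly below. Of these 8, 2 were higher and 2 lower at an unadjusted p under 0.05, against 18.2% of all probe sets in either direction. Insl3 is given above and Cyp17a1 gave -0.04. The change farthest from 0 was that of Vsnl1 (-0.70, adjusted p = 0.0888 in limma), which lay lower in every DBP array. Vsnl1 (-0.65, 0.0221) and Insl3 (-0.41, 0.0499) passed in DBP replicates 1 and 2, where 1.86% of all probe sets passed. In DBP replicates 3 and 4, where 13.3% passed, Insl3 also passed (-0.28, 0.0395) and Vsnl1 did not (-0.76, 0.0598). Hsd11b1 lay higher in every DBP array (0.28, adjusted p = 0.122).

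Of 9 Sertoli cell markers 0 passed (mean log2 of the list 10.25 to 10.32 in vehicle, 10.26 to 10.44 after DBP), with Amh at -0.05 and Dhh at 0.03. At an unadjusted p under 0.05, 3 of the 9 were higher, Cst12 (0.46), Clu (0.25) and Aard (0.24), and 1 was lower, Inhbb, given above. Over all probe sets 18.2% had such a p in either direction. In DBP replicates 3 and 4 Cst12 (0.69, adjusted p = 0.0111 in limma) and Aard (0.28, 0.0312) passed, as did Inhbb (-0.35, 0.015). In that pair 13.3% of all probe sets passed.

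Of 5 erythroid markers 0 passed over all arrays (9.49 to 9.86 in vehicle and 9.57 to 10.26 after DBP). Some of them differed between the pairs of DBP arrays. In DBP replicates 1 and 2, where 1.86% of all probe sets passed, 3 of the 5 passed as higher. They were Slc4a1, the red cell anion exchanger (1.26, adjusted p = 0.0108 in limma), Alas2 of heme synthesis (0.70, 0.0315) and Hemgn (0.63, 0.0294). In DBP replicates 3 and 4 none of the 5 passed, with Slc4a1 at -0.35 and Alas2 at -0.15. Over all arrays Slc4a1 gave 0.45 and Alas2 0.28. Both Gnrhr probe sets changed by nearly the same amount in the 2 pairs, as given above. The part of blood content in the Gnrhr values was not tested.

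Of 6 peritubular myoid markers 0 passed (8.96 to 9.23 in vehicle and 9.06 to 9.41 after DBP), with Acta2 at 0.22 and Myh11 at 0.03. Of 7 macrophage markers 0 passed (6.51 to 6.60 and 6.59 to 6.74), with Cd68 at 0.03 and Csf1r at 0.09. Changes over that list were 0.03 to 0.27. Its members Fcer1g (0.27, adjusted p = 0.0835 in limma) and Cd74 (0.24, 0.115) lay higher in every DBP array. Of 3 germ cell markers 0 passed (7.41 to 7.52 and 7.47 to 7.64), with Sycp3 at 0.31 and Nanos3 at -0.06. Of 5 mesonephric duct markers 0 passed (5.17 to 5.42 and 5.27 to 5.48), with Pax2 at -0.05 and Pax8 at 0.26. In DBP replicates 3 and 4 Sycp3 (0.39, adjusted p = 0.0276 in limma), Pax8 (0.38, 0.04) and the macrophage marker Cd74 (0.33, 0.016) passed. In that pair 13.3% of all probe sets passed.

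Of 5 endothelial markers 1 rose, Plvap (0.36, adjusted p = 0.0471 in limma; list 7.75 to 7.76 in vehicle and 7.78 to 7.88 after DBP), with Pecam1 at 0.04 and Kdr at -0.13. That call was lost without any 1 vehicle array (adjusted p up to 0.142), without DBP replicate 3 (0.0999), without moderation (0.131) and with RNA integrity number as a term (0.34, 0.0856). In DBP replicates 1 and 2 Plvap gave 0.27 (adjusted p = 0.0673 in limma). A term marking replicates 3 and 4 gives that same estimate (0.27, 0.125). In replicates 3 and 4, where 13.3% of all probe sets passed, Plvap passed (0.45, 0.0127). Of 3 adrenal cortex markers 1 fell, Mrap (-0.60, adjusted p = 0.029; list 5.77 to 6.0 and 5.38 to 5.86), with Cyp11b1 at -0.09 and Cyp21a1 at 0.03. The Mrap call was lost without any 1 vehicle array (adjusted p up to 0.116), without DBP replicate 1 (0.0671) and without moderation (0.144). It was also lost with the term marking DBP replicates 3 and 4 (-0.61, 0.0612). Fitted on each pair alone, Mrap passed in DBP replicates 1 and 2 (-0.61, adjusted p = 0.00619 in limma) and in replicates 3 and 4 (-0.60, 0.0323). The shares of all probe sets passing in these pairs were 1.86% and 13.3%. The part of cell composition in the receptor values was not tested.

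The genes whose log2 values ran most like each receptor's over the 8 arrays were found by Pearson correlation with its brightest probe set, among 11196 other genes with a mean log2 of at least 5. For Gnrhr they were Chst2 (r = 0.976), a sulfotransferase, Mpzl2 (0.976), Sgk3 (0.976), a kinase, Foxp1 (0.975) and Mgp (0.975), matrix Gla protein. Chst2 (0.61, adjusted p = 0.00406 in limma), Mpzl2 (0.42, 0.0132) and Sgk3 (0.53, 0.0149) also rose, while Foxp1 gave 0.20 and Mgp 0.19 without passing. The call of Mpzl2 was lost without any 1 vehicle array (adjusted p 0.0502 to 0.0624), and that of Sgk3 without vehicle replicate 2, 3 or 4 (0.0588, 0.0604 and 0.0619). For Lhcgr they were Tepsin (0.989), Brpf3 (0.978), Enc1 (0.972), Pou3f1 (0.970) and Mavs (0.961), and none of these 5 passed, with changes of -0.12 to -0.22. For Prlr they were Elavl1 (0.988), Rora (0.978), Sp1 (0.976), Gsdmd (0.964) and Trps1 (0.950), with changes of -0.15 to -0.38 and 0 past the threshold. Elavl1 encodes an RNA-binding protein that stabilises mRNAs. These values are the highest of 11196 over only 8 arrays that form 2 groups, and they are descriptions without a test.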

How the data were processed

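Fetal testis RNA from 4 vehicle and 4 DBP samples was hybridised to 1 array each. The authors deposited log2 values, produced by RMA per the submitters' processing notes (no version is given in the sources used here); raw array files were not used here. RMA summarises the probes of a set after normalizing between arrays, so small absolute shifts common to all genes are removed. The table held 31099 probe sets; 57 Affymetrix controls were set aside and 31042 tested. 0 pairs of arrays were identical. Of the tested probe sets 20826 had 1 gene symbol in the platform table, 436 several and 9780 none; only those with 1 symbol were named. A gene was represented by its probe set of highest mean.

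Groups were compared with limma 3.58.1 (R 4.3.3), 2-sided, without covariates, with p-values adjusted by Benjamini-Hochberg across the 31042 probe sets at a threshold of 0.05; every adjusted p not called a permutation p is from this model. Exact permutation tests over all 70 relabelings were run for the members with scipy 1.17.1. On simulated data of 31042 probe sets for DBP against vehicle, 96 of 100 probe sets given a log2 shift of 1 were called, 67 of 100 given 0.5 were called, and false calls numbered 6. The simulated noise was independent and normal, with the same spread in both groups. In the real arrays the median SD was 0.08 in vehicle and 0.13 in DBP, so these figures may be too favourable. The comparison of probe sets within a gene was added after the values were seen. The members and lists were chosen with earlier results of these data known. Genes named were all members and ligands, members of each pathway list past the threshold with up to 3 others of smallest p, the first 2 measured of each marker list with those past the threshold, and the 5 genes most like each receptor; other names were chosen after their values were seen. Promoter sequences are from RefSeq (GRCr8), with all 4 receptor genes matched. Whether equal replicate numbers pair the samples was not settled, as the closing section describes, and the main model left them unpaired. Alternatives were filters on signal, normalization, the variance prior, the replicate block, RNA integrity number and array weights. Others were a term marking DBP replicates 3 and 4, subsets of arrays and the mean over probe sets. With that term the DBP estimate is that of DBP replicates 1 and 2 against vehicle. Tables were made with Python 3.11.15 and pandas 2.3.3, figures with matplotlib 3.10.9. The number of arrays limits the precision.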

Additional observations from a re-analysis of the deposited data

Results flagged for a closer look

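None of the 7 receptor probe sets had an array standing far from the other 3 of its group by Dixon's criterion. Among the 118 groups of 4 arrays checked for the named probe sets, 6 had such an array, where chance gives about 1 in 20. Ccnd2 read 10.03 in DBP replicate 2 against 10.81 to 10.86 in the other 3 DBP arrays. Sp1 read 9.36 in the same array against 9.95 to 10.04, and Fabp5 read 11.14 there against 11.29 to 11.30. DBP replicate 2 was also the lowest array for the 2 brighter Prlr probe sets, without meeting the criterion. Csf1r, a macrophage receptor, read 6.89 in DBP replicate 4 against 7.30 to 7.37. Gh1, growth hormone, read 5.41 in DBP replicate 3 against 5.22 to 5.25. Sycp3, a meiotic chromosome protein, read 9.17 in vehicle replicate 1 against 8.92 to 8.95.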

How the results depend on the processing

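Both Gnrhr probe sets stayed higher under every alternative run, at 1.34 to 1.79 for the gene's brighter probe set or its mean and 1.00 to 1.11 for the dimmer one. The brighter lost its call only without moderation (1.62, adjusted p = 0.0902); leaving out each array in turn gave 1.47 to 1.79. The Lhcgr change kept its sign and passed in 0 of 21 alternatives (-0.35 to -0.18, adjusted p 0.0752 to 0.376). Prlr kept its sign in 21 (-0.55 to -0.20) and passed in 1, with RNA integrity number as covariate (-0.53). The dimmer Lhcgr probe set passed in 1 of 20 (-0.89, DBP replicates 3 and 4). No Fshr value could be computed. The count of 331 probe sets (130 higher, 201 lower) became 158 higher and 159 lower after arrays were shifted to the same median, 74 without moderation (41 higher, 33 lower), 577 with DBP replicates 1 and 2 and 4129 with replicates 3 and 4. Leaving out 1 array gave 82 (without vehicle replicate 3) to 606 (without DBP replicate 2); the others moved by over 1.5 times were 114, 122 and 118 without vehicle replicates 1, 2 and 4 and 220 without DBP replicate 3. With the replicate block it was 175. Same-numbered samples correlated at 0.108, -0.076, 0.097 and -0.021 in their deviations, and 4 of 8 correlated best with their own number. With so few arrays, these values cannot settle whether equal numbers pair the samples. Under the block Gnrhr had an adjusted p of 0.0226, Lhcgr 0.241 and Prlr 0.115, and the calls of Prkar2b (0.0896), Plvap (0.0971) and Mpzl2 (0.0532) were lost. The causes of these shifts were not tested.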
